A study of Homo sapiens with 6 samples.

Results

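The 8 genes HNF4A, ONECUT1, FOXA1, FOXA2, SOX9, SOX17, GATA4 and GATA6, which encode transcription factors of the biliary and hepatocyte lineages, were taken by their symbols from a table of 20811 genes, and all 8 were found. The table holds 6 libraries of HuCCT1, an established human line of intrahepatic cholangiocarcinoma, a cancer of the bile ducts within the liver. The 3 HuCCT1/CD90+ libraries come from cells given the human THY1-CMV-GFP lentivirus, where THY1 is the gene of the surface protein CD90. The 3 HuCCT1/CD90- libraries come from cells given the control, Lenti-CMV-GFP-2A-Puro-Blank Lentivirus. Both lines were made at an MOI (multiplicity of infection) of 40, both carry GFP and a CMV promoter, and the sources do not say whether either line is a clone. Total RNA was read on the Ion AmpliSeq Transcriptome panel, where a single short amplicon stands for a gene, and values are RPM, reads on a gene scaled to a common library total.

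Hepatocytes and cholangiocytes arise from a common precursor, the hepatoblast. FOXA1 and FOXA2 are pioneer factors that open chromatin in endoderm, and GATA4 and GATA6 act beside them in the early liver bud. HNF4A is a nuclear receptor that drives the hepatocyte program, including genes of plasma proteins and of the urea cycle. SOX9 marks bile duct cells from an early stage. ONECUT1, also called HNF6, acts in biliary differentiation, and SOX17 is an endoderm factor needed for the gallbladder and the extrahepatic bile ducts.

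The libraries held 8587634 to 10551516 reads on genes, recovered from the RPM values as whole multiples of what 1 read is worth, and 3 reads corresponded to between 0.284 and 0.349 RPM. Where no library of a line exceeded 3 reads for a gene, that gene is described as at the floor in that line, and this limit covers counting error only. THY1 itself had 0, 1 and 0 reads in HuCCT1/CD90- and 435, 445 and 680 reads in HuCCT1/CD90+, as the labels say. KRT7 and KRT19, keratins of cholangiocytes, were abundant in every library, with at least 3040 RPM each. ALB, the albumin gene of hepatocytes, had at most 1 read in any library, and TTR had none. The lines were compared by limma after the values were taken to log2(RPM + 1), and log2 fold changes on that scale understate the change of weakly expressed genes. A differentially expressed gene (DEG) was one that reached a Benjamini-Hochberg adjusted p of 0.05 or less, adjusted over the 20811 genes, together with a fold change of 1.5 or more. No source says that the 3 libraries of a line came from separate cultures, so the p-values measure only the spread between these libraries.

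Of the 8 genes, 2 were higher in HuCCT1/CD90+ as DEGs (HNF4A and FOXA1) and none was lower. Among all genes of the panel, 15.1% were DEGs, with 7.59% higher and 7.49% lower, and in the same fit 24.1% of the genes averaging 1 RPM or more were DEGs. GATA6 also reached the adjusted p, but with a smaller fold change, and 18.9% of all genes reached that p at any fold change. GATA4 joined HNF4A and FOXA1 at the thresholds that the study's methods name, an unadjusted p of 0.05 or less and the same fold change, which 20.1% of all genes passed, 10.1% higher and 9.98% lower. On recovered reads HNF4A, FOXA1, SOX9 and GATA4 were DEGs, 4 of the 6 genes that edgeR tested and of the 7 that DESeq2 tested, where the share over all genes tested was 34.8% and 29.4%. The same 4 genes were DEGs among 6 when limma was fitted only on genes averaging 1 RPM or more, where the share was 33.3%. With median centring 3 of the 8 (HNF4A, FOXA1 and GATA4) were DEGs, where it was 18.8%. With the replicate number as a block, HNF4A and FOXA1 were DEGs and the share was 10.1%. In 5 of the 8 genes (HNF4A, FOXA1, SOX9, GATA4 and GATA6) every HuCCT1/CD90+ library lay above every HuCCT1/CD90- library, a pattern shown by 17.3% of all genes, with 17.7% showing the opposite. These shares count genes with few or no reads, and 6064 to 6343 genes had no reads in a given library. The 5 genes each averaged more than 1 RPM, and the share among such genes was not computed. FOXA2 and ONECUT1 overlapped between the lines, and SOX17 was at the floor in both. The median log2 fold change of the 8 genes was 0.62, against 0.0 over all genes and -0.0086 over the 12062 genes averaging 1 RPM or more. In bulk RNA, a change in the share of cells that express a gene and a change in its level per cell cannot be told apart.

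**Figure D1:**
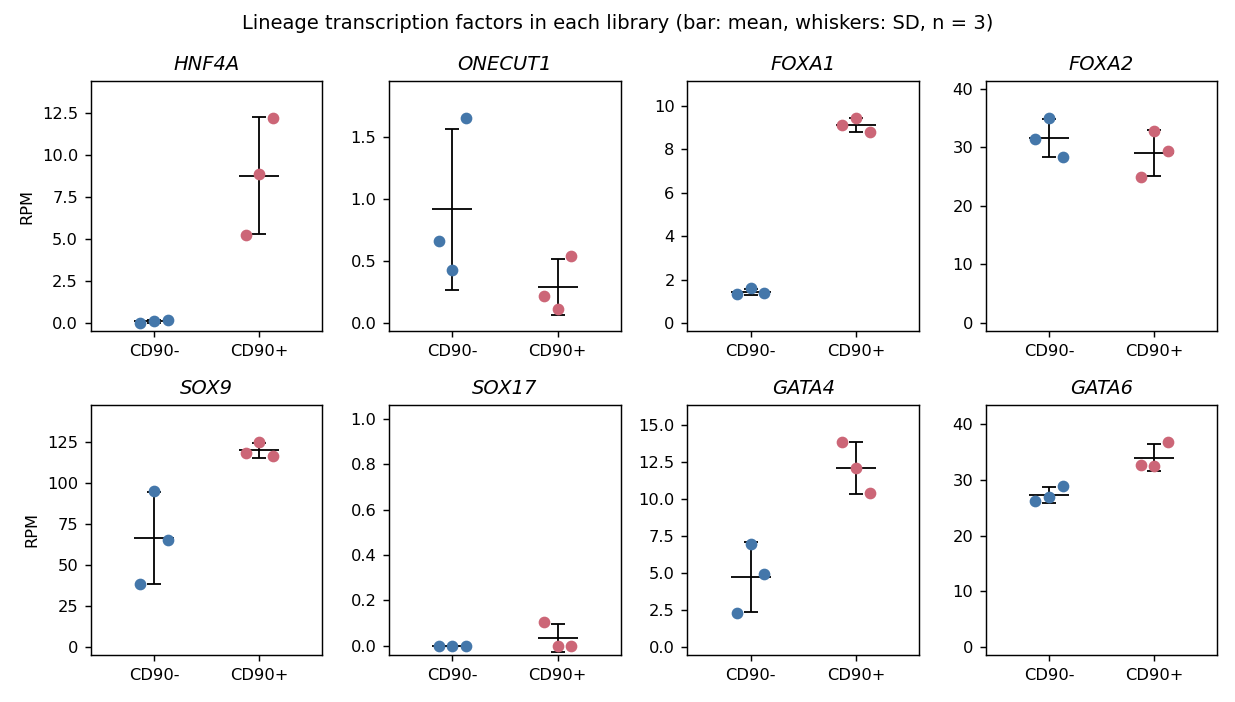
RPM of the 8 transcription factor genes (vertical axes, each panel with its own linear scale) in the 3 HuCCT1/CD90- (blue) and 3 HuCCT1/CD90+ (red) libraries, with the mean as a bar and the SD as whiskers. HNF4A is near 0 in HuCCT1/CD90- and between 5.25 and 12.2 RPM in HuCCT1/CD90+, while FOXA2 lies between 25.0 and 35.0 RPM in both lines.

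HNF4A was almost undetected in the control line and expressed at a low level in HuCCT1/CD90+. It had 0, 0.107 and 0.194 RPM in HuCCT1/CD90- replicates 1, 2 and 3, which are 0, 1 and 2 reads. In HuCCT1/CD90+ it had 5.25, 8.85 and 12.2 RPM, from 49, 76 and 112 reads. The lines did not overlap, and the HuCCT1/CD90+ libraries differed among themselves by more than 2 times. The mean of 8.75 ± 3.45 RPM (SD, n = 3) was at least 27.3-fold higher, when the control line is set to 3 reads in its shallowest library. On the log2 scale the fitted difference was 3.09, with a standard error of 0.30 and a 95% confidence interval of 2.27 to 3.90 (adjusted p = 0.0057, limma). With any 1 library left out it stayed between 2.84 and 3.37, with adjusted p from 0.0063 to 0.030. HNF4G, which encodes the close relative HNF4-gamma, had 3.68 ± 0.900 RPM in HuCCT1/CD90- against 2.37 ± 0.949 RPM in HuCCT1/CD90+ (SD, n = 3 each), and its libraries overlapped (log2 fold change -0.50, adjusted p = 0.35).

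HNF4A occupies bases 44355700 to 44434596 of chromosome 20 in GRCh38, on the plus strand (all positions given here are of GRCh38), and has 9 transcripts in GENCODE release 29, 8 of them coding. It is transcribed from an upstream promoter, P2, and from a downstream promoter, P1, the usual promoter of adult hepatocytes. The starts of their RefSeq windows are 45540 bases apart. The position of the amplicon is not given in the sources used here, so these reads do not say which promoter was in use. An antisense gene, HNF4A-AS1, overlaps the locus and was not analysed here, and whether reads were counted by strand is not stated. Because HNF4A had the largest log2 fold change of the 8 genes, the 250 bases before each start are shown as RefSeq gives them in GRCh38.p14, 5′ to 3′ on the plus strand. P2 covers chr20:44355449-44355698 and P1 covers chr20:44400989-44401238. Capitals mark matches, on either strand, to 6 short motifs. These were TGTTTNC for FOXA factors, AGATAA for factors of the GATA family, ATCNAT for ONECUT factors, CAAAGNNCA for HNF4 factors, ACAANG for SOX factors and CACCTG as the E-box read by ZEB and SNAI factors.
HNF4A P2: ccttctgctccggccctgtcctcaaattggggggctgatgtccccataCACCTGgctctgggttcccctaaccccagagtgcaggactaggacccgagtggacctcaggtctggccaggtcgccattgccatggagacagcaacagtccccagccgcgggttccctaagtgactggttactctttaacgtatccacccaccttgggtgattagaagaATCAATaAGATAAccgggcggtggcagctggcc
HNF4A P1: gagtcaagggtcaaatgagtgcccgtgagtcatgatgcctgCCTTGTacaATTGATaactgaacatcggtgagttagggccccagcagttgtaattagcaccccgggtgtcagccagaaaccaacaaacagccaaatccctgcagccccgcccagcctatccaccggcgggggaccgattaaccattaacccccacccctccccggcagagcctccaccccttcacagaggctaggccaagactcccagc

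In P2 the ONECUT letters began 33 and the GATA letters 26 bases before the start, and the E-box letters 202 bases before it. In P1 the ONECUT letters began 200 bases and the SOX letters 209 bases before the start. Over all 35116 promoter windows of the RefSeq table, read over the same length, 15% held the ONECUT, 9.17% the GATA, 30.9% the SOX and 17.5% the E-box letters, while the HNF4 letters, which neither window held, were in 4.44%. These matches describe the sequence and do not show that a factor binds there.

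FOXA1 was higher in HuCCT1/CD90+, with little spread between libraries. It had 1.33, 1.6 and 1.36 RPM in HuCCT1/CD90- against 9.11, 9.43 and 8.79 RPM in HuCCT1/CD90+. The reads were 14, 15 and 14 in the first line and 85, 81 and 81 in the second. The libraries of each line lay close together and far from those of the other. The means of 1.43 ± 0.152 and 9.11 ± 0.322 RPM (SD, n = 3 each) differed 6.37-fold. The log2 fold change was 2.06 with a standard error of 0.055 (adjusted p = 0.00037, limma), and the adjusted p was between 0.0017 and 0.0050 with any 1 library left out.

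FOXA2, its closest relative in the list, did not differ between the lines by more than their spread. It had 31.4, 35.0 and 28.4 RPM in HuCCT1/CD90- against 25.0, 32.8 and 29.4 RPM in HuCCT1/CD90+. The ranges overlapped, with a log2 fold change of -0.12 whose 95% confidence interval ran from -0.47 to 0.23 (adjusted p = 0.65, limma). FOXA3, another factor of the family, had 4.65 ± 1.36 RPM in HuCCT1/CD90- against 11.3 ± 3.33 RPM in HuCCT1/CD90+ (SD, n = 3 each). Its lines did not overlap, but its adjusted p was 0.068 (log2 fold change 1.11), while the block brought this to 0.025 and edgeR on recovered reads gave an adjusted p of 0.0010.

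The difference between FOXA1 and FOXA2 within a library was compared between the lines. The log2(RPM + 1) value of FOXA1 minus that of FOXA2 was -3.80, -3.79 and -3.64 in HuCCT1/CD90- and -1.36, -1.70 and -1.64 in HuCCT1/CD90+. This difference moved by 2.18 on the log2 scale, and the lines did not overlap (exact permutation test, two-sided, p = 0.10, which is the smallest p that 3 libraries against 3 can give, 0.10 also after adjustment over 2 pairs). The amplicons of the 2 genes may differ in efficiency, so the sign of the difference within a library is not a ratio of transcripts.

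FOXA1 occupies bases 37589984 to 37596059 of chromosome 14 and FOXA2 bases 22581005 to 22585455 of chromosome 20, both on the minus strand of GRCh38. The 250 bases before the RefSeq start of FOXA1, chr14:37595250-37595499, are shown on the minus strand with the same motifs in capitals, since FOXA1 and HNF4A were the DEGs of the list.
FOXA1: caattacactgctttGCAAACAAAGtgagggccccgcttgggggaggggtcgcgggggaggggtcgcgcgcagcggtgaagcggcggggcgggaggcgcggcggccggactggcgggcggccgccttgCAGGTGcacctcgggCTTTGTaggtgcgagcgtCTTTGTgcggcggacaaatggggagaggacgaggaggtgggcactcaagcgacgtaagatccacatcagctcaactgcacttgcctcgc

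This window held FOXA letters that began 235 bases before the start and overlap SOX letters at 231 bases, SOX letters at 107 and 89 bases and the E-box letters at 122 bases. FOXA letters were in 15.5% of all promoter windows. The windows of GATA6 and ONECUT1, the other 2 of the 8 genes that were matched, held none of the 6 motifs. No window of FOXA2 or SOX9 was matched. Chromosome 8, which holds SOX17 and GATA4, was left out of this step, so none of these genes is described in this way.

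GATA4 was higher in every HuCCT1/CD90+ library, but its control libraries were spread. It had 2.27, 6.96 and 4.95 RPM in HuCCT1/CD90- against 13.9, 12.1 and 10.4 RPM in HuCCT1/CD90+, from 24 to 130 reads. Replicate 1 of the control line was the lowest, and the lines did not overlap. The means of 4.73 ± 2.35 and 12.2 ± 1.76 RPM (SD, n = 3 each) differed 2.57-fold, and the fitted difference on log2(RPM + 1) was 1.28 (standard error 0.37, unadjusted p = 0.022, adjusted p = 0.090, limma). On recovered reads GATA4 passed with edgeR (log2 fold change 1.38, adjusted p = 0.00084) and DESeq2 (adjusted p = 0.00016), and with limma when only genes averaging 1 RPM or more were tested (adjusted p = 0.0030). The fit with a replicate block gave it an adjusted p of 0.20. At the study's thresholds GATA4 did not pass with the block, nor without HuCCT1/CD90- replicate 3 or without HuCCT1/CD90+ replicate 1 or 2.

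GATA6 was slightly higher, with little spread. It had 26.2, 26.9 and 28.9 RPM in HuCCT1/CD90- against 32.7, 32.5 and 36.9 RPM in HuCCT1/CD90+. The lines did not overlap, and their means of 27.3 ± 1.43 and 34.0 ± 2.49 RPM (SD, n = 3 each) differed 1.25-fold, under the minimum of 1.5. The log2 fold change was 0.31 with a standard error of 0.068 (adjusted p = 0.046, limma), and the adjusted p was 0.12 with edgeR, 0.13 with DESeq2 and 0.075 to 0.13 with any 1 library left out. Genes near GATA6 had a median log2 fold change of 0.14, and with the change of these 50 neighbours taken off the value of GATA6 was 0.17 (adjusted p = 0.18).

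Within a library, the log2(RPM + 1) value of GATA4 minus that of GATA6 was -3.05, -1.81 and -2.33 in HuCCT1/CD90- and -1.17, -1.35 and -1.73 in HuCCT1/CD90+. The values came close, at -1.81 and -1.73, and did not overlap (exact permutation test, two-sided, p = 0.10, again the smallest that this design allows). This difference too follows from the values of both genes given above. Of the other GATA genes, GATA3 had 7.52 ± 0.295 and 7.15 ± 0.982 RPM (SD, n = 3 each, adjusted p = 0.77). GATA1 was at the floor in both lines and GATA2 in the control line, and GATA5 had no reads. GATA4 lies on chromosome 8 from 11676959 to 11760002 and GATA6 on chromosome 18 from 22169443 to 22202528, both on the plus strand.

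SOX9 had the most reads of the 8 genes and a wide spread in the control line. It had 38.5, 94.9 and 65.3 RPM in HuCCT1/CD90- (406, 887 and 673 reads) against 118, 125 and 116 RPM in HuCCT1/CD90+ (1098, 1074 and 1073 reads). Every HuCCT1/CD90+ library was above the highest control library, and the 3 HuCCT1/CD90+ libraries lay close together. The means of 66.2 ± 28.2 and 120.0 ± 4.66 RPM (SD, n = 3 each) differed 1.81-fold. The log2 fold change of 0.94 (standard error 0.35, 95% confidence interval from -0.0076 to 1.88) did not pass with limma (unadjusted p = 0.051, adjusted p = 0.16). It passed on recovered reads with edgeR (log2 fold change 0.86, adjusted p = 0.0031) and DESeq2 (adjusted p = 0.00085), and with limma over genes averaging 1 RPM or more (adjusted p = 0.014). The limma fit with a replicate block gave SOX9 an adjusted p of 0.21. With HuCCT1/CD90- replicate 1 left out the log2 fold change was 0.60, and without HuCCT1/CD90- replicate 2 it was 1.24. SOX9 lies on chromosome 17 from 72121020 to 72126420, on the plus strand. Its relatives SOX8 and SOX10 were at the floor in both lines.

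**Figure D2:**
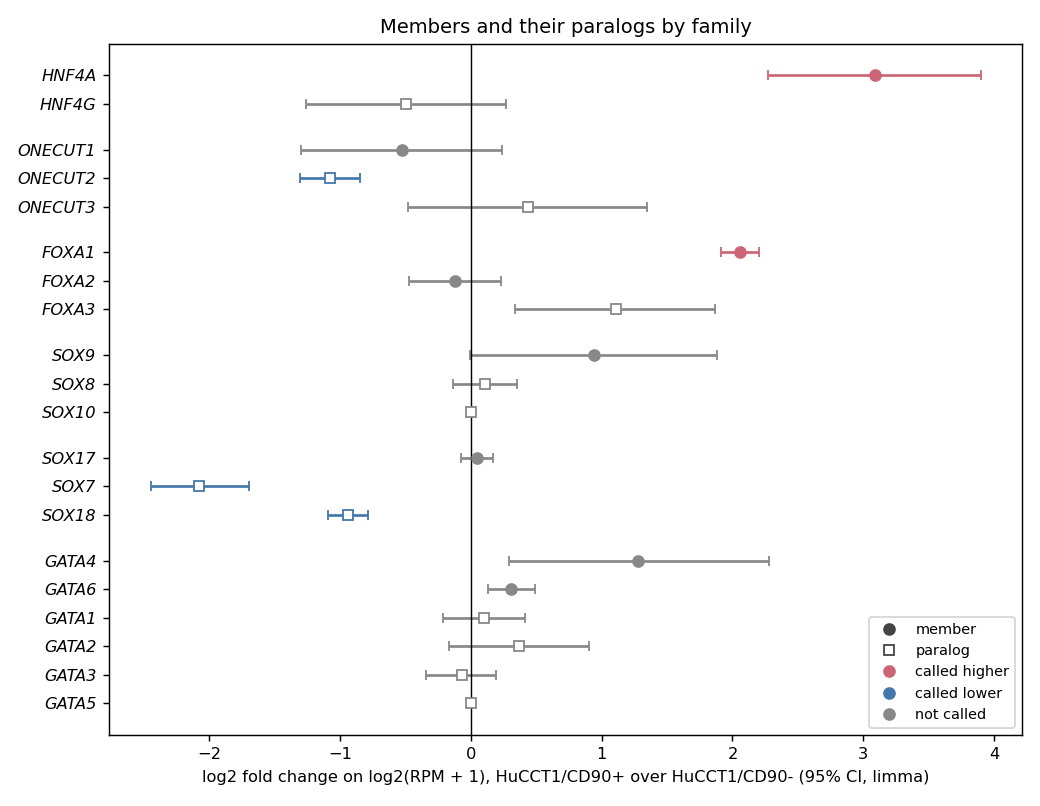
Log2 fold change on log2(RPM + 1) between HuCCT1/CD90+ and HuCCT1/CD90- (horizontal axis) with 95% confidence intervals from limma, for the 8 transcription factor genes (circles) and their 12 paralogs (open squares), grouped by family. HNF4A and FOXA1 are higher, ONECUT2, SOX7 and SOX18 are lower, and the intervals of SOX9 and GATA4 are wide.

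ONECUT1 and SOX17 were close to undetected. ONECUT1 had 0.663, 0.428 and 1.65 RPM in HuCCT1/CD90- against 0.214, 0.116 and 0.543 RPM in HuCCT1/CD90+, from 7, 4 and 17 reads against 2, 1 and 5 reads. The ranges overlapped, and the fitted difference of -0.53 on the log2 scale (SE 0.29, adjusted p = 0.32, limma) rests on few reads. Its paralog ONECUT2 fell from 2.99 ± 0.304 to 0.889 ± 0.146 RPM (SD, n = 3 each, log2 fold change -1.08, adjusted p = 0.0032). ONECUT3 had 6.66 ± 3.12 and 8.98 ± 2.08 RPM, and its libraries overlapped (adjusted p = 0.53).

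SOX17 had 1 read in HuCCT1/CD90+ replicate 1 and none in the other 5 libraries, so no fold is given. Its family members SOX7 and SOX18, known best from blood vessel lining, were both DEGs. SOX7 fell 4.43-fold from 79.6 ± 12.9 RPM (SD, n = 3) in the control line (log2 fold change -2.08, adjusted p = 0.0021). SOX18 went from 1.26 ± 0.117 RPM to the floor and was at least 3.61-fold lower (adjusted p = 0.0017). CDH5, a marker of the same vessel lining, was lower as well, and its part in this was not tested. It was the only DEG of 6 endothelial markers (16.7%, against 15.1% over all genes), and the other 5 were not DEGs. Over all 12 paralogs of the 8 genes, 3 were lower (25.0% DEGs, against 15.1% over all genes), none was higher and 4 were at the floor in both lines. With the replicate block 3 were lower and 1 was higher (FOXA3). ONECUT1 lies on chromosome 15 from 52756989 to 52791078 and SOX17 on chromosome 8 from 54457935 to 54460888.

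Genes near the 8 loci were examined, since the median log2 fold change differed between chromosomes, from -0.32 on chromosome 1 to 0.548 on chromosome 7 among the autosomes. Over the 50 closest genes averaging 10 RPM or more, the median ran from 0.0020 at SOX9 to 0.25 at FOXA1. With this median taken off, an alternative added after seeing the data, the log2 fold change was 3.00 for HNF4A (adjusted p = 0.0061, limma) and 1.83 for FOXA1 (adjusted p = 0.00041).

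The profiles most like those of the 8 genes were sought for the 3 that averaged 10 RPM or more, as the distance between log2(RPM + 1) values centred per gene over 6 libraries, among 8793 other genes. Nearest to SOX9 were TMEM132A (distance 0.262), MBNL2 (0.296) and PLOD3 (0.299). Nearest to GATA6 were OSBPL11 (0.0815), MEGF9 (0.103) and CDK2 (0.107), and nearest to FOXA2 were POLD1 (0.0414), SGPL1 (0.0617) and HIGD2A (0.0878). The distances of SOX9 were larger than those of the other 2 genes, whose values varied less.

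Of 22 other transcription factors of liver and bile duct, 3 were higher, 4 lower and 15 were not DEGs, or 2 higher and 5 lower with the replicate block. The share of DEGs was 31.8%, against 15.1% over all genes and 24.1% over those averaging 1 RPM or more, and 13 of the 22 averaged as much. All 22 had a median log2 fold change of -0.022. NR1H3, the oxysterol receptor LXR-alpha, fell by 1.74 on the log2 scale, from 14.4 ± 3.96 to 3.51 ± 0.237 RPM (SD, n = 3 each, adjusted p = 0.0082). NR5A2, a receptor that takes part in bile acid synthesis, fell from 7.26 ± 1.74 to 1.86 ± 0.945 RPM (adjusted p = 0.037, between 0.051 and 0.11 with any 1 library left out). HEY1, a Notch target, went from 2.68 ± 0.141 RPM to the floor and was at least 7.68-fold lower (adjusted p = 0.00055).

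Most of the listed genes that hepatocytes express, some of them known targets of HNF4A, were too low to compare. Of 30 such genes, none was higher, 4 were lower and 26 were not DEGs (13.3% DEGs, near the 15.1% over all genes). At the floor in both lines were 21 of the 30, among them ALB, TTR and APOB, and 4 averaged 1 RPM or more. HP, the gene of haptoglobin, had 9.86, 10.2 and 9.9 RPM in HuCCT1/CD90- and no reads in HuCCT1/CD90+, at least 28.5-fold lower (adjusted p = 2.5e-06, limma). CPS1, a urea cycle enzyme, fell from 17.3 ± 1.88 to 2.15 ± 0.703 RPM (SD, n = 3 each, log2 fold change -2.56, adjusted p = 0.0032). APOA1, the main protein of HDL, fell from 3.24 ± 1.33 to 0.221 ± 0.215 RPM (adjusted p = 0.026, and 0.067 to 0.090 with any 1 library left out other than HuCCT1/CD90- replicate 3). SERPINA1, the gene of alpha-1-antitrypsin, which the rule for named genes leaves out for its low mean, was the fourth and at least 4.74-fold lower (adjusted p = 0.011, or 0.071 with the replicate block). The summed level of the list was 33.3 to 37.3 RPM in HuCCT1/CD90- against 5.24 to 7.08 RPM in HuCCT1/CD90+.

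**Figure D3:**
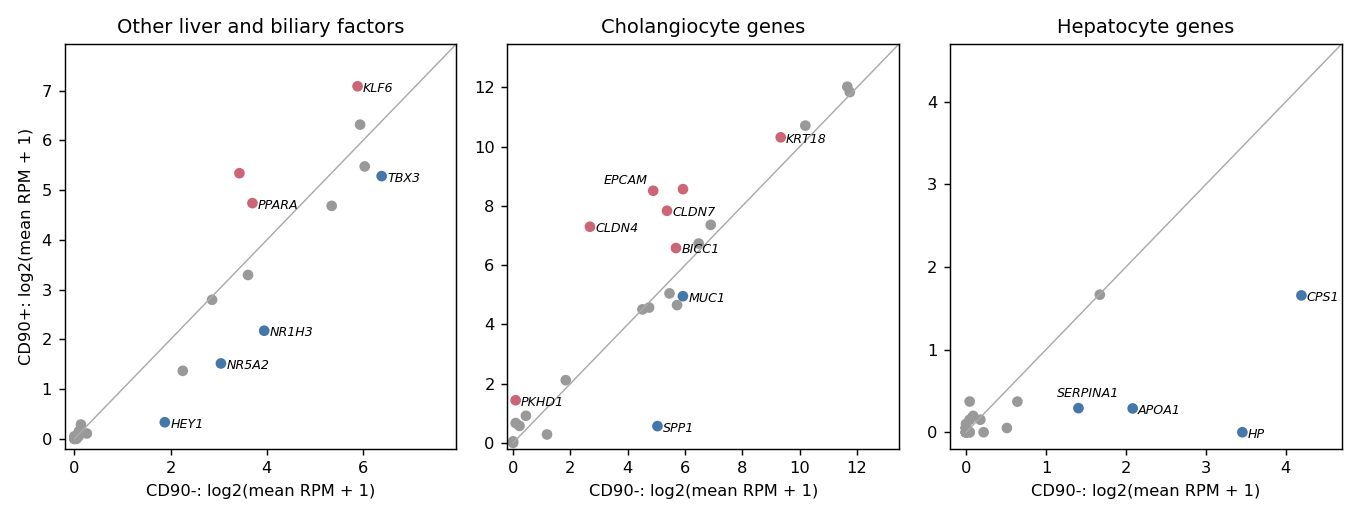
Mean level in HuCCT1/CD90+ against that in HuCCT1/CD90-, both as log2(mean RPM + 1) over 3 libraries, for 22 other liver and biliary transcription factors, 25 cholangiocyte genes and 30 hepatocyte genes, with the line of equal level in grey. Red points are higher and blue points lower DEGs. All 4 coloured hepatocyte genes lie under the line, whereas 7 of the 9 coloured cholangiocyte genes lie above it.

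More of the listed cholangiocyte genes were higher than lower. Of 26 genes, 25 were found, 7 were higher, 2 lower and 16 were not DEGs, or 6 higher and 3 lower with the replicate block. The share of DEGs was 36.0%, again against 15.1% and 24.1%, and 18 of the 25 averaged 1 RPM or more. All 25 had a median log2 fold change of 0.33. CLDN4, a tight junction claudin, rose from 5.41 ± 2.73 to 156 ± 13.8 RPM (SD, n = 3 each, log2 fold change 4.69, adjusted p = 0.0022). The adhesion gene EPCAM rose 12.7-fold (adjusted p = 0.00070). SPP1, the gene of osteopontin, fell 66.2-fold (adjusted p = 0.0034). KRT7 differed by 0.091 on the log2 scale (adjusted p = 0.65), within its spread, and KRT19 was higher by 0.36 on the log2 scale (adjusted p = 0.029), under the minimum fold change.

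Among 12 genes of fetal liver and progenitor cells, 2 were higher (PROM1 and CD44) and 1 lower (H19). DEGs made up 25.0%, against 15.1% of all genes and 24.1% of those averaging 1 RPM or more. At the floor in both lines were 7 of the 12, and 4 averaged 1 RPM or more. PROM1, which encodes CD133, rose from 0.940 ± 0.316 to 24.4 ± 2.60 RPM (adjusted p = 0.00070, limma). H19, an imprinted RNA of fetal liver, fell 65.2-fold (adjusted p = 0.00043). AFP, the fetal counterpart of albumin, had at most 1 read in any library.

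Many factors of other endoderm organs, such as intestine, pancreas and lung, were undetected. Of 18 genes, 9 were at the floor in both lines, 4 were higher, among them KLF4, ELF3 and KLF5, and 1 was lower. This is a share of 27.8%, against 15.1% over all genes and 24.1% over those averaging 1 RPM or more. With the replicate block 2 were higher, without KLF4 and KLF5 (KLF5 is named here after its values were seen), and 1 was lower. Over all genes the share was then 10.1%. KLF4, an epithelial factor, rose from 1.31 ± 0.811 to 11.3 ± 1.76 RPM (SD, n = 3 each, adjusted p = 0.013, or 0.056 with the replicate block, and 0.054 and 0.059 without HuCCT1/CD90+ replicate 1 and replicate 3). ELF3, an ETS factor of epithelia, rose 3.29-fold to 96.8 ± 23.2 RPM (SD, n = 3, adjusted p = 0.018, and 0.050 to 0.070 without replicate 2 or 3 of either line).

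Of 15 partner genes that were found out of 17, 1 was higher and 3 were lower, or 1 higher and 1 lower with the replicate block. Their share of DEGs was 26.7%, against 15.1% over all genes and 24.1% over those averaging 1 RPM or more. GRHL2, a regulator of epithelial junction genes, rose 18.4-fold (adjusted p = 0.00043). PPARGC1A, a coactivator of HNF4A, fell 5.67-fold (adjusted p = 0.014, or 0.053 with the block, and up to 0.061 without any 1 of the HuCCT1/CD90+ libraries). ZFPM2, known as FOG2, a cofactor of GATA4, fell 4.12-fold (adjusted p = 0.026, or 0.090 with the block, and up to 0.087 without HuCCT1/CD90- replicate 2 or any 1 HuCCT1/CD90+ library). LINC00261, a long noncoding RNA next to FOXA2, had 2.27, 2.14 and 0.582 RPM in HuCCT1/CD90- against 2.79, 3.14 and 2.17 RPM in HuCCT1/CD90+, which overlapped, and of 8 listed noncoding transcripts near these genes it was the 1 that was matched by symbol.

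Markers of other cell types moved with the lines as well, and their part in these results was not tested. Over all genes 15.1% were DEGs, with 7.59% higher and 7.49% lower, or 10.1% with the replicate block. Without the block the share was 24.1% over genes averaging 1 RPM or more. Each of the short lists that follow is to be read against these shares. Of 7 fibroblast markers 5 were lower (DCN, LUM, PDGFRB, COL1A2 and COL3A1), or 2 with the replicate block (LUM and PDGFRB). COL1A2 and COL3A1 average under 1 RPM and are named after their values were seen. The list summed to 41.8 to 65.3 RPM in HuCCT1/CD90- against 20.4 to 24.7 RPM in HuCCT1/CD90+. With 1 library left out, LUM had an adjusted p of up to 0.13, whereas PDGFRB had one of at most 0.0089. Of 6 endothelial markers, 1 was lower (CDH5, from 16.6 to 0.293 RPM), with sums of 14.9 to 23.4 and 1.29 to 1.86 RPM, and KDR and VWF had no reads in HuCCT1/CD90-. Of 6 leukocyte markers, 2 were lower (CD14 and LYZ, of which LYZ had an adjusted p of 0.069 with the block) and 1 higher (CD68), with sums of 131 to 155 and 88.9 to 107 RPM, while PTPRC had at most 1 read in any library.

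**Figure D4:**
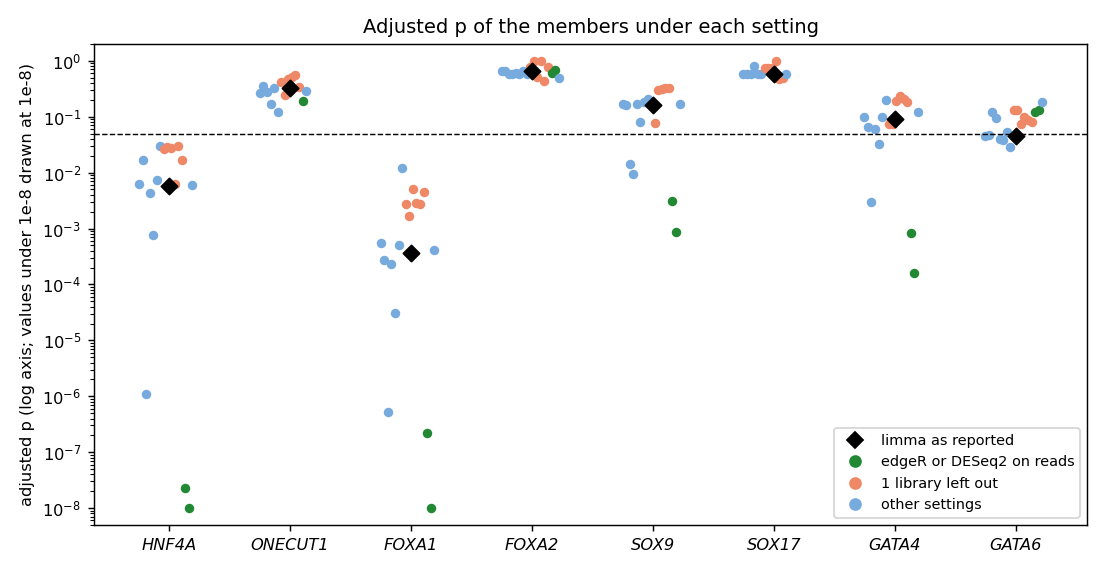
Adjusted p of each of the 8 transcription factor genes (vertical log axis) under the reported limma fit (black diamonds), edgeR and DESeq2 on recovered reads (green), 1 library left out (orange) and the other settings (blue), with 0.05 as a dashed line. Every point of HNF4A and FOXA1 lies under the line, those of SOX9 and GATA4 lie on both sides, and those of FOXA2, ONECUT1 and SOX17 lie above it.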

How the data were processed

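The authors amplified reverse-transcribed total RNA of 6 HuCCT1 libraries (3 per line) with the Ion AmpliSeq Transcriptome panel and obtained a read count for every amplicon from the ampliSeqRNA plugin. The submitters' processing notes name hg19 and the Transcriptome Analysis Console. The deposited values are RPM, which the authors scaled to a common library total, for 20811 genes. Positions came from GENCODE release 29 (GRCh38), in which 18561 symbols had 1 position, and promoters from RefSeq (GRCh38.p14). Amplicon positions are not given in the sources used here, so amplicons were not placed.

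Whole reads were recovered by finding what 1 read is worth in each library, and 100% of the values came out whole to within 0.01 reads beyond rounding. The libraries held 8587634 to 10551516 reads, and PCR reads without molecular identifiers are not independent molecules, so the floors describe counting error alone. No library was a copy of another (chi-square of at least 9.18 per degree of freedom for every pair).

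Values were taken to log2(RPM + 1) and compared, two-sided and without a replicate block, by the eBayes test of limma 3.58.1 (R 4.3.3) over all genes, as the study's methods name. The code was tested on simulated reads with changes set only in genes averaging 10 RPM or more, a level that HNF4A, FOXA1 and GATA4 do not reach. Where no tool stands beside an adjusted p, limma gave it. Alternatives were edgeR 4.0.16 (quasi-likelihood, TMM, filterByExpr, 12070 genes) and DESeq2 1.42.0 on recovered reads, offsets of 0.1 and 5 RPM, filters at 1 and 10 RPM, quantile normalization, median centring, a trended and robust eBayes, a block for the replicate number, leaving out each library and a minimum fold change of 2. A correction for neighbouring genes was added after seeing the data.

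Same-numbered libraries of the lines deviated together (r = 0.21, 0.32 and 0.18 over all genes, against -0.29 to 0.07 for the other 6 pairs). The fit with a block therefore took the numbers to pair them, from this check alone. The main fits have no block, since the study's methods name none.

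The 8 genes, the 11 other gene lists and the tests were chosen with earlier results of these data known. Named from each other list were up to 4 DEGs with a mean of at least 1 RPM and the largest absolute log2 fold change, besides paralogs, THY1 and the 3 nearest profiles of those of the 8 that averaged 10 RPM or more. Genes named outside this rule (KLF5, SERPINA1, COL1A2, COL3A1, LINC00261, and cell type markers given to check a label or a level near 0) were chosen after their values were seen. Some genes that the rule would name are counted in their lists but not reported here by name.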

Additional observations from a re-analysis of the deposited data

How the results depend on the processing

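HNF4A and FOXA1 stayed higher DEGs in every setting in which they were tested, and FOXA2, ONECUT1 and SOX17 were DEGs in none. Of 134 repeats over the 8 genes, 126 kept the call, 8 gained one (GATA4 and SOX9) and none lost or reversed it. GATA4 and SOX9 joined them, for 4 DEGs, with edgeR (6 of the 8 tested), DESeq2 (7 tested) and limma over genes averaging 1 RPM or more (6 tested, 4011 of 12062 genes called). The count was 3 with median centring (GATA4 joined, 3911 genes called) and 1 (SOX9) over genes averaging 10 RPM or more, a filter that removes HNF4A, FOXA1 and GATA4. At the thresholds of the study's methods the count of 3 became 1 with that filter and 2 to 4 with 1 library left out. GATA4 dropped out (count 2) on leaving out replicate 3 of the control line, or replicate 1 or 2 of HuCCT1/CD90+, and SOX9 came in (count 4) on leaving out replicate 1 or 2 of the control line. GATA4 had an adjusted p of 0.033 with median centring and SOX9 one of 0.0094 with the same filter. Over all genes, 3138 were DEGs, 1874 at a minimum fold change of 2 and 1868 to 2414 with 1 library left out (2083 without HuCCT1/CD90- replicate 3 and 1868 without HuCCT1/CD90+ replicate 3). At the study's thresholds 4186 genes passed, 2044 at a minimum fold change of 2 and 2595 with the filter at 10 RPM. edgeR called 4200 of 12070 genes and DESeq2 4236 of 14399. With the replicate number as a block, for the pairing of the libraries, 2102 genes and 2 of the 8 were DEGs, the adjusted p was 0.030 for HNF4A and 0.012 for FOXA1, and no call among the 8 changed at an adjusted p. At the study's thresholds 2 of the 8 passed with the block, without GATA4. Other named genes kept their calls in 637 of 699 repeats, lost it in 57 and gained one in 5. HNF4A, ONECUT1 and SOX17 rest on few reads in at least 1 line, where depth limits what could be seen. The cause of these changes was not tested.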
